A study of Rattus norvegicus with 16 samples.

Results

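The uninjured sciatic nerve of the side opposite to the injury was profiled on 8 of the 16 arrays of the series, 4 taken 7 days post injury (DPI) and 4 taken at 3 DPI. These 8 arrays are those that the labels title as contralateral control nerves. The other 8 arrays held the injured distal nerve, 4 at 7 DPI and 4 at 3 DPI, and enter here where a contralateral value is set beside them. All animals were male Sprague Dawley rats of 6 weeks that carried a resection of the sciatic nerve of the other hindlimb, in which a segment was removed and the distal end tucked away from regrowing axons. They had been anesthetized with isoflurane and given ketoprofen or meloxicam and buprenorphine, so the contralateral nerve is that of an operated animal and not of a naive one. Nerves of unoperated rats were not analysed here. The labels call the 4 arrays of a group biological replicates but do not tie a nerve to an animal, and no source says whether the nerves of both days were processed together, so the day and any batch of handling cannot be told apart.

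The sciatic nerve bundles sensory, motor and sympathetic axons whose cell bodies lie elsewhere, so most of its mRNA comes from the cells around the axons. Schwann cells wrap the larger axons in myelin and ensheath the small ones without it. Endoneurial mesenchymal cells lie among the axons, perineurial cells form a barrier around each fascicle, and the epineurium outside it holds mesenchymal cells, fat and vessels. Resident macrophages and mast cells are scattered through all of these layers. In a nerve section, fewer cells of a type and less RNA per cell cannot be told apart, which applies to every value below.

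The values were log2 levels from the robust multichip average (RMA), 1 probe set for each of 18166 genes. A difference of 1 on this scale is 2-fold. The 8 contralateral arrays had rank correlations of 0.982 to 0.994 with each other, of 0.986 to 0.994 within a day and of 0.982 to 0.992 between the days, against 0.938 to 0.969 with the injured nerves (Spearman, across genes, which are not independent replicates). A probe set's brightness depends on its probes as well as on its mRNA, so the rank of a gene among other genes describes where its probe set stood and is not a measured amount of mRNA.

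The resting nerve was led by myelin, matrix and housekeeping genes. Pmp22, the peripheral myelin protein gene that is duplicated in a common inherited neuropathy, had the highest probe set of all, with a level of 13.84 ± 0.03 (SD over the 8 arrays) and a lowest array of 13.79. The mitochondrially encoded cytochrome oxidase genes COX3 (13.62 ± 0.04) and COX1 (13.53 ± 0.04), the intermediate filament gene Vim (13.49 ± 0.03), the stearoyl-CoA desaturase gene Scd2 (13.35 ± 0.05) and the matrix gene Sparc (13.30 ± 0.06) were among the 10 highest. The order at the top varied little between nerves. Of the 10 genes with the highest mean, 7 were among the 10 highest on each of the 8 arrays, and of the 100 highest, 74 were among the 100 highest on each array.

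The 100 highest genes held 6 of the 6 measured genes of compact myelin, 7 of 20 collagen and matrix genes, 3 of 12 genes of fatty acid and sphingolipid synthesis, 13 ribosomal protein symbols and 3 mitochondrially encoded genes. They held no gene from the lists for macrophages, endothelial cells, vascular smooth muscle, adipocytes, skeletal muscle, cell division or the circadian clock. To give the levels a floor, 68 olfactory receptor genes, which the nerve is not known to use, were read on the same arrays. Their median level was 4.55 and their 95th percentile 6.42, and 11034 genes, or 60.7% of those measured, had a resting mean above that percentile.

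**Figure D1:**
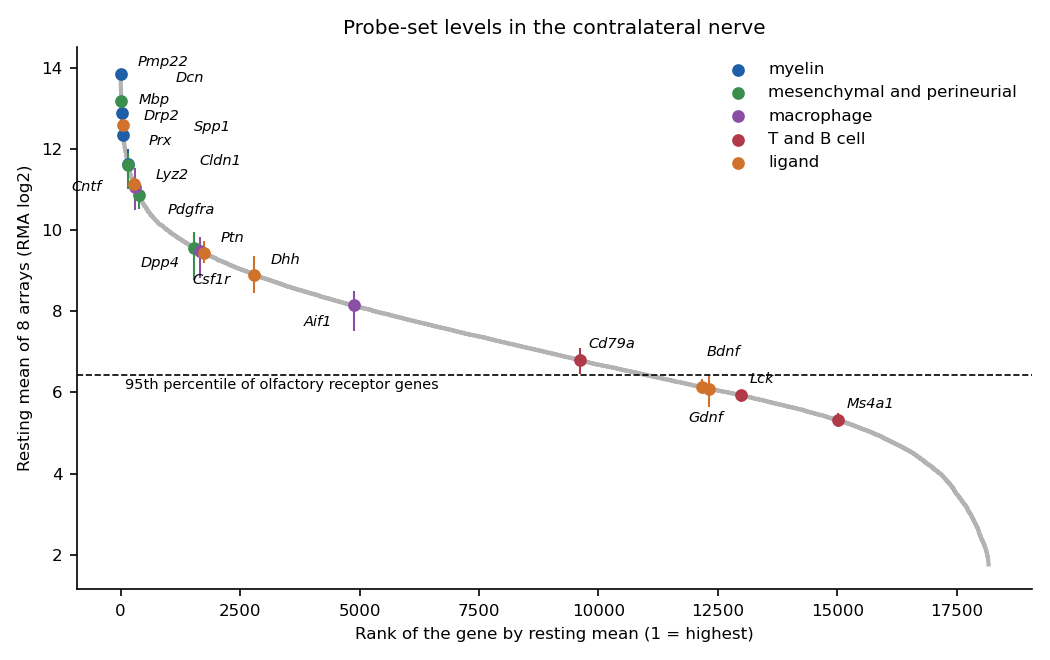
Resting level (mean of the 8 contralateral arrays, RMA log2, vertical axis) of every gene against its rank (horizontal axis, 1 is the highest), as a grey curve. Points are named genes coloured by group, bars run from the lowest to the highest contralateral array, and the dashed line is the 95th percentile of the olfactory receptor genes at 6.42, above which the myelin genes lie far and below which Bdnf, Gdnf, Lck and Ms4a1 lie.

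The labelled tissue was checked against markers of its cells. Compact myelin genes stood between 12.64 and 13.84, with Pmp2, a lipid carrier of myelin, at 13.14 ± 0.07, Mal, a raft protein of myelin membranes, at 12.91 ± 0.16, Mbp, myelin basic protein, at 12.89 ± 0.17 and the tetraspanin Cd9 at 12.81 ± 0.07. In the non-compact myelin list, Drp2 (12.35 ± 0.15) and Prx (11.63 ± 0.22), which together anchor the Schwann cell membrane to its basal lamina, stood highest of 11 genes whose lowest level was 7.04. The Schwann cell marker S100b was at 12.60 ± 0.09, while the lineage factors Egr2 (9.01 ± 0.37) and Sox10 (8.60 ± 0.29) stood lower. Scn7a, a sodium channel gene of non-myelinating Schwann cells, was at 12.13 ± 0.27, and the adhesion molecule gene Ncam1 at 9.37 ± 0.30.

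Lipid synthesis genes that supply myelin were also bright. Ugt8, which makes the galactolipid galactosylceramide, was at 12.75 ± 0.08, and Msmo1 (12.21 ± 0.08) and Fdft1 (11.52 ± 0.13) of the cholesterol pathway followed, within a list of 15 genes with a median of 9.90. The 13 measured respiratory chain genes had a median of 9.95 and the 11 glycolysis genes one of 9.34, and their members were steady, with a median SD within a day of 0.08 and 0.09, beside 0.07 for compact myelin and 0.14 for all genes.

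The connective tissue layers were represented by Dcn, a collagen-binding proteoglycan, at 13.18 ± 0.08, and by the fibrillar collagens Col1a1 (13.16 ± 0.17) and Col3a1 (13.16 ± 0.14). Pdgfra, the receptor that marks nerve mesenchymal cells, was at 10.85 ± 0.16. The endoneurial markers Etv1 (9.63 ± 0.10) and Osr2 (9.54 ± 0.12) were close to the epineurial marker Dpp4 (9.56 ± 0.37), with Cd248 of the same layer at 8.89 ± 0.43, while Wif1, a further endoneurial marker, stood at only 6.84 ± 0.08, near the median of all genes (6.94). In the perineurial list, the tight junction gene Cldn1 (11.61 ± 0.31), the integrin gene Itgb4 (10.81 ± 0.19) and the glucose transporter gene Slc2a1 (10.59 ± 0.28) were highest, and Msln, the study's perineurial marker, was at 7.21 ± 0.36. The endothelial genes Emcn (9.84 to 10.20 over the 8 arrays) and Cdh5 (9.89 ± 0.28), the pericyte gene Rgs5 (10.72 ± 0.14) and the smooth muscle gene Tagln (10.75 ± 0.46) showed the vessels.

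Of the lists for immune cells, that of macrophages stood highest, with a median of 8.32. All 16 measured macrophage genes lay above the 6.42 level, led by Lyz2, lysozyme, at 11.05 ± 0.35, with the receptor gene Csf1r at 9.49 ± 0.31 and Aif1 at 8.14 ± 0.29. The mast cell protease gene Cpa3, at 10.04 ± 0.42, was the brightest of 8 mast cell genes. Their median was 6.93, near the 6.94 of all genes, and their lowest level 3.42. Of these 8 genes, 6 lay above the 6.42 level. Of 10 genes of T and natural killer cells, 1 lay above it, Cd4 (10.12 ± 0.31), which rat macrophages also express, while the T cell genes Cd8a (6.02 ± 0.13) and Lck (5.93 ± 0.09) did not. Of 3 B cell genes, 2 lay above 6.42, Cd79a (6.79 ± 0.20) and Cd79b, while Ms4a1 (5.31 ± 0.13) did not. None of 9 neutrophil genes lay above 6.42, the highest being Camp at 6.16 ± 0.16. The skeletal muscle genes Ckm (7.07 ± 0.23) and Acta1 (7.08 ± 0.40), which would mark muscle carried along in dissection, were near the median of all genes.

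Growth factor genes of the resting nerve ranged from the brightest 100 genes to the olfactory level. Spp1, osteopontin, was at 12.58 ± 0.10, Fgf1 at 11.22 ± 0.17, the ciliary neurotrophic factor gene Cntf at 11.12 ± 0.11 and Igf1 at 10.86 ± 0.37, with the lymphatic growth factor gene Vegfc at 7.40 ± 0.12. Among the neurotrophic ligands, pleiotrophin, Ptn, was at 9.44 ± 0.20 and midkine, Mdk, at 8.60 ± 0.10, and the Schwann cell morphogen Dhh, which organizes the perineurium, was at 8.90 ± 0.31. Ntf3 (6.09 ± 0.16), Bdnf (6.13 ± 0.13) and Gdnf (6.09 ± 0.25) lay below the 6.42 level, and their order does not exceed their spread. Of the 223 measured ligands that the study lists for the uninjured nerve, 176 lay above the 6.42 level, beside 60.7% of all genes. The study chose that list on these arrays by level, with Ntf3 as its cutoff, and Ntf3 itself lay below 6.42 here. The count is thus in part set by that choice. The receptor genes Il6st (11.21 ± 0.10), the shared subunit for the interleukin 6 family and Cntf, and Gfra1 (10.08 ± 0.09), the GDNF receptor, were bright. Among the genes known to mark injured Schwann cells, Jun stood at 9.14 ± 0.31 and Atf3 between 7.76 and 8.17. These were the brightest of the 12 genes on that list, which had a median of 6.69 and a lowest level of 6.09. Of the 12, 6 lay above the 6.42 level.

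The genes that lead the resting profile were then read against the injured nerves in the same limma fit. Of the 100 highest, 40 were higher and 25 lower in contralateral than in injured nerves at 7 DPI, and 41 were higher and 31 lower at 3 DPI (adjusted p under 0.05). Over all genes, 13.0% were higher and 19.1% lower at 7 DPI, and 14.7% were higher and 18.8% lower at 3 DPI. Because the 100 genes were chosen for a high contralateral level, the excess of higher ones is in part set by the choice and is given as a description. Of the 100, 68 were also among the 100 highest of the injured nerves at 7 DPI and 70 at 3 DPI. Pmp22 averaged 13.82 ± 0.03 in contralateral nerves and 12.15 in injured nerves at 7 DPI, and Pmp2 averaged 13.11 ± 0.08 in contralateral and 8.53 in injured nerves (log2 difference 4.59, limma adjusted p = 1.1e-12). Dcn (13.16 in contralateral and 13.11 in injured nerves at 7 DPI, adjusted p = 0.651) and COX3 (13.63 and 13.60 in the same order, adjusted p = 0.711) did not pass.

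The contralateral nerves served as the controls of each day, and the day comparison asked how far these controls differed from each other. Between contralateral 7 DPI and 3 DPI, 13 genes passed (limma, Benjamini-Hochberg adjusted p under 0.05), which was 0.0716% of the genes tested, with 10 higher and 3 lower at 7 DPI, and 2 of the 13 reached 2-fold. In all 13, the 4 arrays of 7 DPI did not overlap the 4 of 3 DPI. Of all genes, 2.92% were higher and 2.49% lower with no overlap. The median size of the day difference was 0.09 over all genes, against 0.17 for the difference between contralateral and injured nerves on either day.

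Of the 10 genes that rose at 7 DPI, Mki67 and Ccna2 are on the cell division list. Mki67, the gene of the proliferation marker Ki-67, had levels of 8.64, 9.13, 9.10 and 9.01 at 7 DPI, against 8.34, 8.23, 7.61 and 7.89 at 3 DPI, a log2 difference of 0.95 ± 0.15 (SE, n = 4 arrays per day, adjusted p = 0.0235). Depdc1, known for its role in mitosis, had 5.68, 6.21, 6.36 and 6.24 at 7 DPI and 5.20, 5.13, 4.97 and 4.79 at 3 DPI (1.10 ± 0.16, adjusted p = 0.0235). Prc1, which bundles the microtubules of the dividing cell's midzone, had 7.40, 7.95, 8.01 and 7.86 at 7 DPI and 7.21, 6.82, 7.02 and 6.69 at 3 DPI (0.87 ± 0.14, adjusted p = 0.0235). In each of these 3 genes, array 1 was the lowest of the 7 DPI arrays. Ect2, which directs cytokinesis, rose by 0.87 ± 0.13, Ccna2, cyclin A2, by 0.75 ± 0.13, Fbxo5, an inhibitor of the anaphase-promoting complex, by 0.65 ± 0.10, the DNA helicase gene Brip1 by 0.63 ± 0.09 and Mcm6, a subunit of the replication helicase, by 0.55 ± 0.09.

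The promoters of 3 of these genes are shown because many genes expressed late in the cell cycle are known to hold the cell cycle homology region, TTTGAA, and these 3 hold it. The sequences are those of RefSeq for the rat assembly GRCr8, which holds 33469 of them. Each runs 5′ to 3′ on the gene's strand from 250 bases before the annotated start to 50 after it, with every TTTGAA or its reverse complement in capitals. They lie at chr1:199952544-199952843, minus strand (Mki67), at chr1:143659231-143659530, plus strand (Prc1) and at chr2:251343031-251343330, plus strand (Depdc1).
Mki67: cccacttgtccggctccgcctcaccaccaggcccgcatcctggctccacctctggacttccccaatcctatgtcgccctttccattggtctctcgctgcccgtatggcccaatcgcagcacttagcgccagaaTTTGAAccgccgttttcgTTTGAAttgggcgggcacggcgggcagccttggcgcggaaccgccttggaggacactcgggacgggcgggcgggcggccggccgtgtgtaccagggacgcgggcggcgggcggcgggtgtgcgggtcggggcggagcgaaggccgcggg
Prc1: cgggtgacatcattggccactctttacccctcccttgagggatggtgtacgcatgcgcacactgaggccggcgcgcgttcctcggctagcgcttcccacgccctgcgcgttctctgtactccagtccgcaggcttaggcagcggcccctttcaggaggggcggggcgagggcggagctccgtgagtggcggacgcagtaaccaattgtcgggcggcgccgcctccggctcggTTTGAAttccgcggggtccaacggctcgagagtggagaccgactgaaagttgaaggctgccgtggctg
Depdc1: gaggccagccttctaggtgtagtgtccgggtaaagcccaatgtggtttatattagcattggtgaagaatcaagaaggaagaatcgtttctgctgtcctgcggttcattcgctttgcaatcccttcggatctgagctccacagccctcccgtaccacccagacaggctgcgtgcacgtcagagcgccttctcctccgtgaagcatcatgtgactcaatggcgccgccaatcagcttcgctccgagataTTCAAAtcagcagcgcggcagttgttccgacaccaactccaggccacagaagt
Counted from the start, with -1 the last base before it, the match began at -117 and -99 in Mki67, at -18 in Prc1 and at -3 in Depdc1. Searched on either strand, it was in 18.3% of all promoters, in the promoters of 5 of the 12 passed genes that have an entry (Depdc1, Ect2, Fbxo5, Mki67 and Prc1) and in those of 8 of the 11 genes of the cell division list that have one. Mki67 is in both groups, and a match is a description of these letters, not a site in use.

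The remaining passed genes have other roles. Mboat1, an acyltransferase that remodels membrane phospholipids, had the smallest adjusted p of all, with 10.01, 10.11, 10.18 and 10.01 at 7 DPI against 10.72, 11.08, 11.24 and 10.86 at 3 DPI, and fell by 0.90 ± 0.10 (adjusted p = 0.00367). Aldoc, the aldolase of nervous tissue, had 8.73, 8.90, 8.74 and 8.93 at 7 DPI and 9.31, 9.50, 9.34 and 9.39 at 3 DPI, and fell by 0.56 ± 0.10 (adjusted p = 0.0365). Dbh, which makes noradrenaline in sympathetic neurons, had 6.26, 6.47, 6.46 and 6.83 at 7 DPI and 7.13, 7.03, 7.62 and 7.33 at 3 DPI, and fell by 0.78 ± 0.14 (adjusted p = 0.0484). Th, the enzyme before it in the same pathway, differed by -0.37 ± 0.12 and did not pass (adjusted p = 0.256). Ankef1, an ankyrin repeat gene, rose by 1.09 ± 0.18 with 7.22, 6.78, 6.38 and 6.11 at 7 DPI and 5.66, 5.30, 5.69 and 5.47 at 3 DPI, and the kinase gene Mark1 rose by 0.38 ± 0.06.

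These calls were sensitive to single arrays. Leaving out 7 DPI array 1, 2, 3 or 4 gave 36, 1, 2 and 18 passed genes, and leaving out 3 DPI array 1, 2, 3 or 4 gave 191, 1, 1 and 1. Fitted to the 8 contralateral arrays alone, limma passed 0 genes (smallest adjusted p = 0.121, 1849 genes at an unadjusted p under 0.05, no other tool run). Mboat1 passed in 17 of 18 alternatives, the exception being this fit of 8 arrays, and the other 12 genes passed in 8 to 11 of the alternatives that tested them. The 18 leave out the 2-fold minimum, which Mboat1 did not reach.

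**Figure D2:**
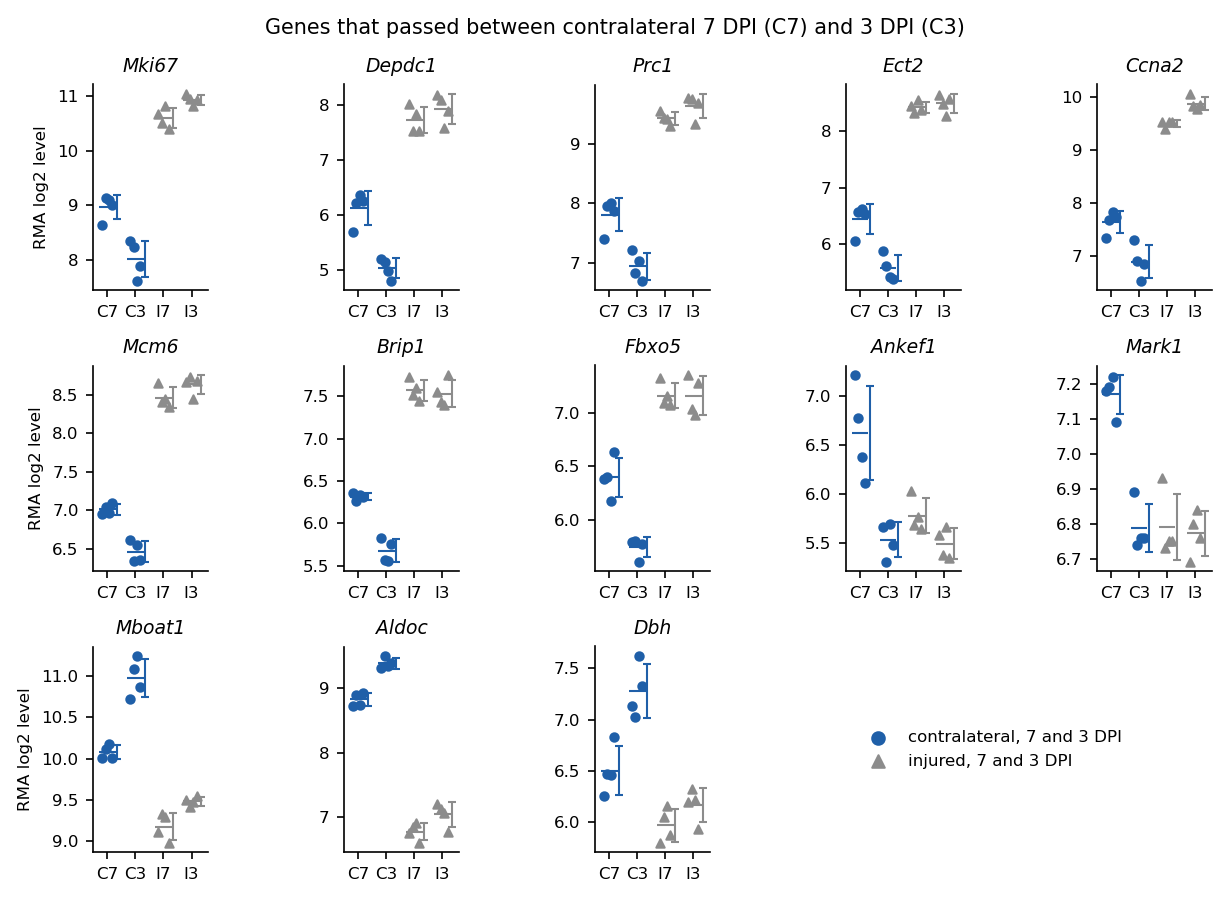
RMA log2 level (vertical axis, a scale of its own for each gene) of the 13 genes that passed, by array. Circles are contralateral nerves at 7 DPI (C7) and 3 DPI (C3), triangles injured nerves at 7 DPI (I7) and 3 DPI (I3), short lines are means and bars are SDs (n = 4). The circles of C7 and C3 do not overlap in any panel, and the 8 genes of the upper part, from Mki67 to Fbxo5, are far higher in injured nerves.

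The cell division list as a whole showed the same direction. All 14 of its measured genes had a positive difference, 2 passed (Mki67 and Ccna2), 13 had an unadjusted p under 0.05, and 10 had arrays that did not overlap. Of all genes, 6.26% were higher at that unadjusted p, 2.92% were higher with no overlap and 0.0716% passed. The genes of the list were read on the same arrays, so they are not separate observations of the day. The median difference of the list was 0.65, against 0.00 for all genes. Top2a, topoisomerase II, at 0.90 ± 0.17 (adjusted p = 0.0546), and the cyclin-dependent kinase gene Cdk1, at 0.70 ± 0.16 (adjusted p = 0.0945), did not pass, and Cdc20 (0.25 ± 0.12) and Ccnb2 (0.31 ± 0.09) had the smallest differences. In each of the 18 alternatives, 13 or 14 of the 14 genes had a positive difference at an unadjusted p under 0.05, and the median lay between 0.54 and 0.83. Averaged over the list, the 7 DPI arrays deviated from the mean of the 8 arrays by 0.09, 0.36, 0.37 and 0.43, and the 3 DPI arrays by -0.06, -0.22, -0.61 and -0.36.

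The difference was then set against that of the injured nerves. Mki67 was at 10.39 to 10.82 in injured nerves at 7 DPI and at 10.81 to 11.04 at 3 DPI, well above every contralateral array, and its injured day difference was -0.33 (adjusted p = 0.253). The contralateral day difference minus the injured one was 1.28 ± 0.21 for Mki67 (adjusted p = 0.00452), 1.30 ± 0.23 for Depdc1 (adjusted p = 0.00751), 1.13 ± 0.19 for Ccna2 (adjusted p = 0.00479) and 1.08 ± 0.20 for Prc1 (adjusted p = 0.00939). It passed for 8 of the 13 genes and for 9 of the 14 in the cell division list, against 1.72% of all genes. Both contrasts use the same contralateral arrays, so these counts are in part set by the choice of the genes. None of the 13 passed between the days in injured nerves, where 730 of all genes did.

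Genes that are known to respond to nerve injury were read in the same way. Pmp2 averaged 13.11 in contralateral nerves at 7 DPI and 13.18 at 3 DPI, and 8.53 in injured nerves at 7 DPI and 11.45 at 3 DPI. Drp2 averaged 12.23 and 12.48 in contralateral nerves and 7.27 and 9.73 in injured nerves on the same days. Spp1 averaged 12.53 and 12.64 in contralateral nerves and 11.26 and 12.71 in injured nerves, and Gfra1 10.05 and 10.11 in contralateral nerves and 11.92 and 11.11 in injured nerves. None of these 4 genes passed between the days in contralateral nerves (the smallest adjusted p was 0.381, that of Drp2), and the difference between the 2 day differences passed in all 4. The 4 were chosen with earlier results of these data known, so this is a description. It passed for 3 of 6 compact myelin and 2 of 11 non-compact myelin genes, all positive. Of 35 growth factor ligands, 4 passed as positive and 2 as negative, and of 21 receptors 1 and 1, against 1.72% of all genes.

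Lists for other cell types differed in direction, and none of their genes passed. The median difference was 0.63 for adipocytes, 0.59 for red blood cells, 0.42 for epineurial mesenchymal cells, 0.29 for mast cells, 0.25 for macrophages (15 of 16 positive), 0.21 for endothelial cells and 0.20 for vascular smooth muscle and pericytes, against -0.06 for endoneurial mesenchymal cells (4 of 5 negative) and -0.03 for B cells. Without 3 DPI array 3 it was 0.16 for mast cells and 0.08 for macrophages, and without 7 DPI array 3 it was 0.35 for endothelial cells and 0.16 for macrophages. At an unadjusted p under 0.05, which 6.26% of all genes met as higher and 4.90% as lower, 11 of the 18 adipocyte genes had a positive and 1 a negative difference. Without 7 DPI arrays 1 and 2 the adipocyte median was 0.25, with 6 positive and 2 negative, and without 3 DPI array 1 it was 0.74 and 6 of the genes passed. Fabp4, the fatty acid carrier of fat cells, had 10.67, 10.73, 10.30 and 10.07 at 7 DPI and 9.81, 8.92, 9.28 and 9.22 at 3 DPI (1.13 ± 0.24, adjusted p = 0.0719), and Plin1, which coats the lipid droplet, had 8.54, 8.41, 7.67 and 7.20 at 7 DPI and 7.18, 6.44, 6.89 and 6.52 at 3 DPI (adjusted p = 0.059). Cfd, adipsin, differed by 1.17 ± 0.27 (adjusted p = 0.0962), Cidec by 1.07 ± 0.31 (adjusted p = 0.215) and the lipoprotein lipase gene Lpl by 0.28 ± 0.23 (adjusted p = 0.703). Slc36a2, an amino acid transporter on the same list, had the negative one (-0.31 ± 0.13, adjusted p = 0.379). Globin and other red blood cell genes had a median of 0.59, with Hba-a1, alpha globin, at 8.14, 9.73, 7.99 and 8.70 at 7 DPI and 7.98, 7.68, 7.26 and 7.93 at 3 DPI (0.93 ± 0.33, adjusted p = 0.299). Array 2 of 7 DPI was highest for both globin genes, with Hbb-b1 at 10.33 there and at 8.38 to 9.70 on the other 7 arrays. Without that array, 1 of the 4 red blood cell genes was positive at an unadjusted p under 0.05 in place of 3.

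Lists that mark no single cell type were read at the same level. None of the 20 collagen and matrix genes passed, and they had a median of 0.27, with 8 positive at an unadjusted p under 0.05. These were 13 without 3 DPI array 1, where 3 passed, and 5 without 3 DPI array 3. The 18 immediate early genes, none of which passed, had a median of 0.19, with 7 positive, among them Fos (0.87 ± 0.21, adjusted p = 0.121), and 3 positive with a median of 0.11 without 7 DPI arrays 1 and 2. Their median was 0.29 without 7 DPI array 3. Egr1 of the same list differed by 0.34 (adjusted p = 0.601).

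The lists of myelin, of Schwann cell identity, of non-myelinating Schwann cells and of axons had negative median differences, while that of injured Schwann cells had one of 0.04, with 8 of 12 genes positive (-0.03 without 7 DPI array 1), and none of their genes passed. All 11 measured genes of non-compact myelin and junctions had a negative difference, 7 of them at an unadjusted p under 0.05 (4.90% of all genes were lower at that level), with a median of -0.33. The 7 became 3 without 7 DPI array 3 or without 3 DPI array 3 and 4 without 3 DPI array 2, and with single arrays left out the median lay between -0.44 and -0.23. Prx had 11.47, 11.55, 11.35 and 11.49 at 7 DPI and 11.55, 11.86, 11.99 and 11.78 at 3 DPI (-0.33 ± 0.14, adjusted p = 0.402), with 11.55 both as the highest of 7 DPI and as the lowest of 3 DPI. Of 14 Schwann cell identity genes, 6 had a negative difference at that level, among them Sox10 (-0.43 ± 0.11, adjusted p = 0.151), and of 13 genes of neurons and axons, 5, among them Stmn2 (-0.58 ± 0.21, adjusted p = 0.304) and Snap25, a synaptic vesicle fusion protein, with 7.00, 7.16, 7.36 and 7.46 at 7 DPI and 7.48, 8.25, 8.33 and 7.95 at 3 DPI (-0.76 ± 0.18, adjusted p = 0.109). The 15 cholesterol synthesis genes all had a negative difference (median -0.11), as had the 6 compact myelin genes (median -0.09), with Mbp at -0.27 ± 0.11 (adjusted p = 0.366).

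The lists were read array by array. On 3 DPI array 3, the non-compact myelin list deviated from its mean by 0.44 and the list of non-myelinating Schwann cells by 0.45, while macrophage genes deviated by -0.49, MHC class II genes by -0.53, mast cell genes by -0.62, collagen and matrix genes by -0.43 and cell division by -0.61. On 7 DPI array 3 the non-compact myelin list deviated by -0.39 and macrophage and matrix genes by 0.37 each. On 3 DPI array 1, the cell division list was at -0.06, the highest of that day, as were macrophage (0.23), matrix (0.17) and epineurial (0.16) genes. The part of these other cell types in the cell division difference was not tested. The glycolysis and respiratory chain lists stayed within 0.09 of their means on all 8 arrays.

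**Figure D3:**
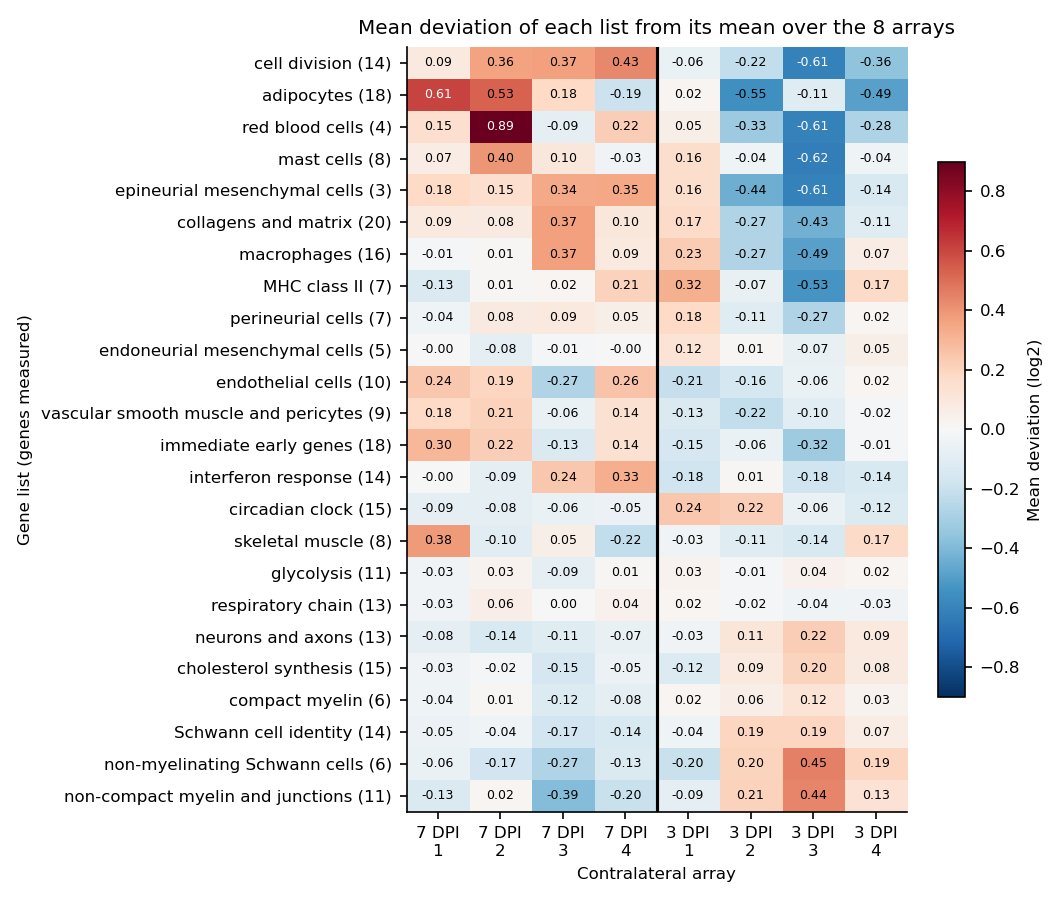
Mean deviation (log2, colour and digits) of 24 gene lists from their own mean over the 8 contralateral arrays, the 4 arrays of 7 DPI left of the line and the 4 of 3 DPI right of it, with the number of measured genes in brackets. Cell division is above 0 on all 7 DPI arrays and below 0 on all 3 DPI arrays, and 3 DPI array 3 has the highest non-compact myelin value and the lowest matrix, macrophage and mast cell values.

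Most genes were steady between nerves of 1 day. The median within-day SD was 0.14, 146 genes had one above 0.5 and 8 above 1. The 15 named genes with the widest spread were chosen by that spread alone, and none of them passed between the days (the smallest limma adjusted p was 0.332, that of Car3). Widest was Epyc, epiphycan, a small proteoglycan known from growth cartilage, with 6.07, 9.57, 10.14 and 6.45 at 7 DPI and 9.81, 10.74, 8.69 and 7.80 at 3 DPI. Arrays 1 and 4 of 7 DPI were thus at the level of the injured nerves, which ran from 6.10 to 6.43 at 7 DPI and from 6.15 to 7.26 at 3 DPI, and the other 6 stood above all of them.

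Adipoq, Car3 and Thrsp, all known from fat, were next. Adipoq, adiponectin, had 9.97, 10.04, 9.93 and 7.99 at 7 DPI and 9.30, 6.61, 8.85 and 6.44 at 3 DPI. Car3, a carbonic anhydrase abundant in fat, had 11.69, 11.72, 11.63 and 9.84 at 7 DPI and 11.05, 7.52, 10.35 and 7.72 at 3 DPI, and Thrsp, a lipogenic regulator, was likewise highest in array 1 of 3 DPI, at 9.17, and at 6.77 and 6.74 in arrays 2 and 4. Array 4 of 7 DPI and arrays 2 and 4 of 3 DPI were low in all 3 genes, so their day differences of 1.68 ± 0.69 (Adipoq), 2.06 ± 0.78 (Car3) and 1.55 ± 0.67 (Thrsp) rested on nerves that differed as much within a day.

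A further 5 of the 15 genes shared the highest array of each day and the lowest array of 3 DPI. They were grouped after their values were seen. Postn, periostin, a matrix protein, had 10.03, 10.14, 11.17 and 10.36 at 7 DPI and 11.03, 8.77, 8.25 and 9.39 at 3 DPI. Sfrp4, a secreted Wnt modulator, had 10.55, 10.09, 11.98 and 11.13 at 7 DPI and 11.46, 9.85, 9.59 and 11.05 at 3 DPI. Aspn and Cthrc1, which encode secreted proteins, and Gnas, which encodes a G protein subunit, were, like these 2 genes, highest in array 3 within 7 DPI and in array 1 within 3 DPI, and lowest in array 3 within 3 DPI. Kera, keratocan, was at 7.74 on array 3 of 7 DPI and at 5.16 to 6.39 on the other 7 arrays. Of the rest, Lrrn3 was highest on 3 DPI array 1 (10.72), the chemokine gene Cxcl13 on 7 DPI array 3 (9.23), and Fam111a lowest on 3 DPI array 3 (5.79).

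**Figure D4:**
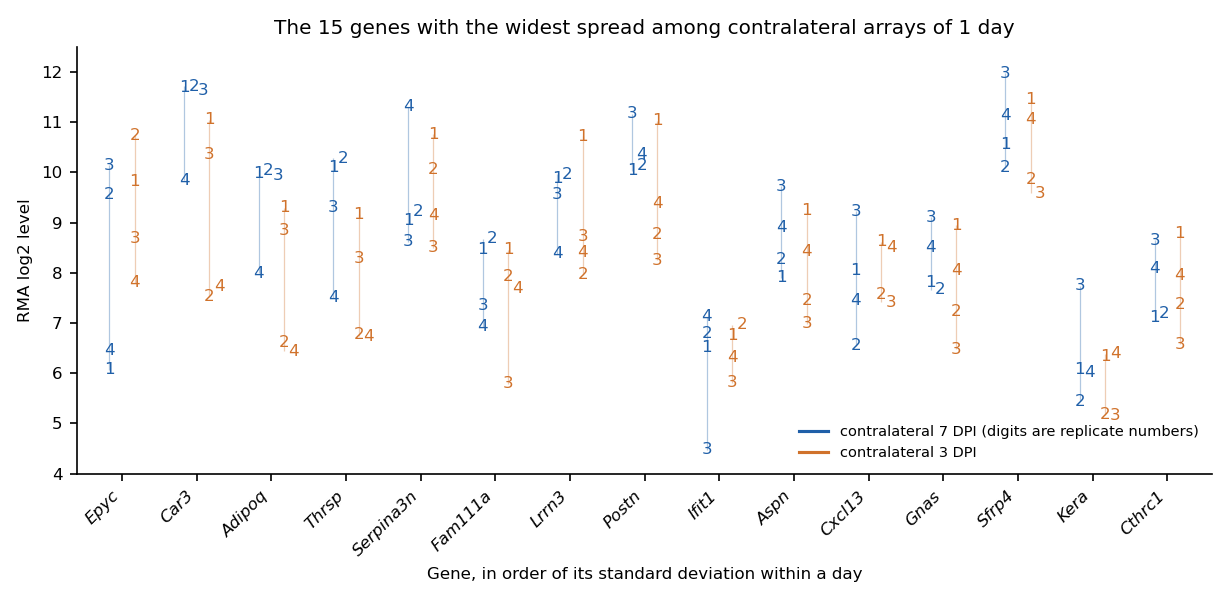
RMA log2 level (vertical axis) of the 15 genes with the largest SD within a day, in that order. Digits are the replicate numbers of the contralateral arrays, 7 DPI left and 3 DPI right for each gene, shifted sideways where they would overlap. Epyc ranges from 6.07 to 10.74, and arrays 2 and 4 of 3 DPI are lowest for Car3, Adipoq and Thrsp.

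Serpina3n and Ifit1 were also set beside the injured nerves of the same numbers. Serpina3n, an acute phase serine protease inhibitor, had 9.05, 9.22, 8.62 and 11.31 in contralateral nerves at 7 DPI, and the injured nerves of the same numbers had 9.72, 9.71, 8.32 and 11.63. At 3 DPI it had 10.76, 10.06, 8.50 and 9.14 in contralateral and 10.33, 10.51, 8.85 and 9.16 in injured nerves. The nerves above 10 were number 4 at 7 DPI and numbers 1 and 2 at 3 DPI on either side. Ifit1, an interferon-induced gene, was lowest in number 3 at 7 DPI on either side, at 4.47 in the contralateral nerve and 5.22 in the injured one. The list of 14 interferon response genes was not low on that contralateral array. It deviated from its mean there by 0.24, with 0.33 the highest of that day. Adipoq did not match between the sides, with 9.30 in contralateral and 6.30 in injured number 1 at 3 DPI. The labels do not say that equal numbers are 1 animal, and these genes were chosen after their values were seen, so the values are given side by side with no test.

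The circadian clock is a loop in which Bmal1 and Clock drive genes with an E-box in their promoters, among them the Per genes, Nr1d1 and Dbp, whose products then repress or feed back on it, so that Bmal1 peaks when these are low. Arrays 1 and 2 of 3 DPI differed from the other 6 contralateral arrays in these genes. Dbp had 9.50, 9.49, 9.64 and 9.59 at 7 DPI and 10.98, 10.94, 9.60 and 9.57 at 3 DPI. Nr1d1, a repressor of Bmal1, had 9.07, 9.05, 9.27 and 9.40 at 7 DPI and 10.35, 10.15, 9.27 and 8.98 at 3 DPI. Per2 had 6.07, 6.50, 6.30 and 6.49 at 7 DPI and 7.12, 7.75, 6.46 and 6.35 at 3 DPI. Bmal1 went the other way, with 9.05, 8.96, 8.97 and 9.03 at 7 DPI and 7.99, 7.77, 9.13 and 9.08 at 3 DPI. Thus the pair of arrays was high where the 3 output and repressor genes are concerned and low for Bmal1, and the other 2 arrays of 3 DPI lay within or next to the range of 7 DPI.

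Per3 (8.94 and 9.30 on these arrays), the clock repressor gene Ciart (7.27 and 7.65) and the D-box factor gene Tef (7.83 and 7.96), chosen after their values were seen, were above all of their other contralateral arrays on the pair, and Npas2, a partner of Bmal1, was at 8.53 and 7.68 and below all of its others. Clock itself, at 10.32 ± 0.07 over the 8 arrays, and Per1, at 7.32 ± 0.17, showed no such gap. None of the 15 measured clock genes passed between the days, and Dbp, with a difference of -0.72 ± 0.27, had an adjusted p of 0.334. The injured nerves of numbers 1 and 2 at 3 DPI were also the highest of their group in Dbp, with 10.34 and 10.06 against 9.76 and 9.54 in numbers 3 and 4, and the lowest in Bmal1, with 7.55 and 7.72 against 8.56 and 8.49. The hour at which each nerve was taken is not given in the sources used here. Tsc22d3, which responds to glucocorticoids, was at 8.70 and 8.66 on the pair and at 7.98 and 8.54 on the other arrays of 3 DPI, while Fkbp5, which also does, was at 6.78 and 6.72 on the pair and at 6.44 and 6.65 on the others.

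**Figure D5:**
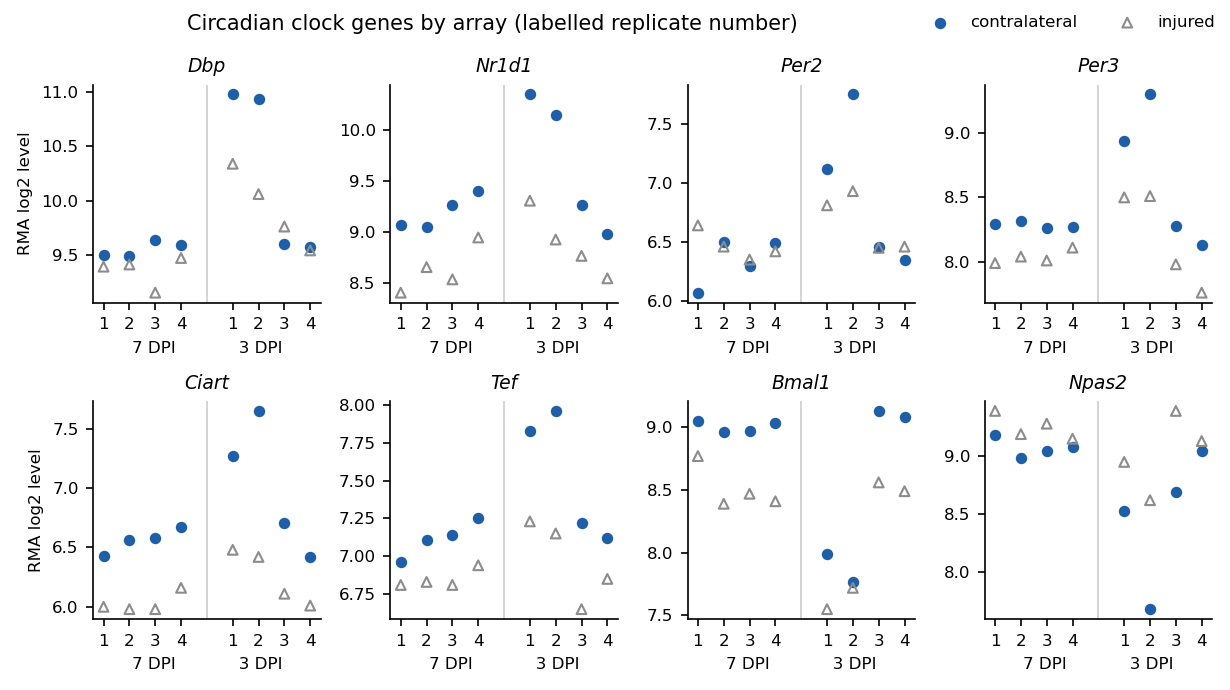
RMA log2 level (vertical axis, a scale of its own for each gene) of 8 clock genes by labelled replicate number, 7 DPI left and 3 DPI right. Filled circles are contralateral nerves and open triangles injured nerves. Contralateral arrays 1 and 2 of 3 DPI are the highest of the 8 for Dbp, Nr1d1, Per2, Per3, Ciart and Tef and the lowest for Bmal1 and Npas2.

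The promoters of 4 of these genes are shown for the short elements through which the loop is known to run, with the same source and span as above. In Nr1d1 (chr10:84229405-84229704, minus strand, the second of 2 listed starts) and Ciart (chr2:186112197-186112496, minus strand) the capitals mark the E-box CACGTG, in Per2 (chr9:99496944-99497243, minus strand) the D-box TTATGTAA that Dbp and Tef bind, and in Bmal1 (chr1:176766078-176766377, plus strand) the half-site AGGTCA that Nr1d1 binds.
Nr1d1: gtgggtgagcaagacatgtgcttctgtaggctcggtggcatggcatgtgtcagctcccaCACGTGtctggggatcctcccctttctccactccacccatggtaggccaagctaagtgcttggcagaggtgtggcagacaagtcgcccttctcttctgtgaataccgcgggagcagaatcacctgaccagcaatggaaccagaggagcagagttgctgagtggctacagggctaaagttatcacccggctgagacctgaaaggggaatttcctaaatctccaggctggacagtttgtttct
Ciart: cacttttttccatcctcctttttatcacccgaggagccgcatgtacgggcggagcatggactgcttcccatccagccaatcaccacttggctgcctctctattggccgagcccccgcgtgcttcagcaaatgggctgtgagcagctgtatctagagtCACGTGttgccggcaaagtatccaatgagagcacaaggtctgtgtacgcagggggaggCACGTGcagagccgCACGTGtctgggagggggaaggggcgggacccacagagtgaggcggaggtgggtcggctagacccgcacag
Per2: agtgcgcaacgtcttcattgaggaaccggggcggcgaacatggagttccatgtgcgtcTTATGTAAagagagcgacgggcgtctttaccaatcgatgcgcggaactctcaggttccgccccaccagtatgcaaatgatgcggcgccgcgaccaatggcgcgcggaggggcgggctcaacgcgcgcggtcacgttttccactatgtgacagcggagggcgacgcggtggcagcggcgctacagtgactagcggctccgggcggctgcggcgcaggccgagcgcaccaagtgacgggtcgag
Bmal1: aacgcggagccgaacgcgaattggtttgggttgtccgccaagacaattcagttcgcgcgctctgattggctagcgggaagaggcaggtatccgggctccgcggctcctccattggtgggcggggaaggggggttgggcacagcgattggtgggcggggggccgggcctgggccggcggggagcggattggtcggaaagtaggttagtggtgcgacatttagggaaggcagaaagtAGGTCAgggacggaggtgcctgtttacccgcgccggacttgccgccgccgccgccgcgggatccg
The E-box was in a listed promoter of 5 of 14 clock genes (Bhlhe40, Bhlhe41, Ciart, Nr1d1 and Tef), and in 6.42% of all promoters. In the promoters shown it occurred once in Nr1d1 and 3 times in Ciart. The D-box was in 1 of the 14, that of Per2, and in 0.893% of all, and the half-site in 1, that of Bmal1, and in 16.2% of all. All were searched on either strand. A clock gene counted if any of its listed promoters held the element, while the shares of all are per promoter, so the 2 are not fully alike. The genes thus carry different elements in these windows, and a window without one says nothing about the rest of the gene.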

How the data were processed

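RNA of sciatic nerve tissue, which the study describes as the distal segment, was hybridised by the authors to Affymetrix Rat Gene 2.0 ST arrays, 1 array per nerve. The authors deposited log2 expression values that they had normalised by RMA with the oligo package (version not given in the sources used here). RMA equalises the distributions of the arrays, so a shift that most genes have in common would not be seen. The array medians lay between 6.27 and 6.40, and no 2 arrays were identical. Read depth does not apply, and precision is set by how few arrays there are.

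Of 36685 probe sets, 18511 had 1 gene symbol in the platform annotation, 575 had several and 17599 had none. The last 2 kinds were left out, and the brightest probe set over the 16 arrays stood for each of the 291 genes that had more than 1, which left 18166 genes, 18059 of them in a RefSeq gene table (GRCr8, used for names). The log2 values were fitted with limma 3.58.1 in R 4.3.3 to the 4 group means of all 16 arrays (12 residual degrees of freedom), with Benjamini-Hochberg adjustment over all genes. "Passed" means an adjusted p under 0.05. Summaries and plots used Python 3.11.15, pandas 2.3.3 and matplotlib 3.10.9. On simulated arrays with known shifts in 50 genes each, the fit of contralateral 7 DPI against 3 DPI over 18166 genes recovered 31 genes at a log2 shift of 0.5, 46 at 1, 33 at -0.5 and 47 at -1, with 9 false calls. The simulated noise was drawn independently for each gene. It thus lacked the deviations that many genes shared on single real arrays, and these counts do not carry over to the real arrays.

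Genes were named by rule: the 30 highest resting means, up to 10 passed genes in each direction, up to 4 passed and the 3 brightest members of each of 40 gene lists, the 15 widest SDs within a day and a set fixed by name, with placeholder symbols left out of the first, second and widest-SD parts. Bmal1, Per3, Ciart, Tef, Npas2, Th, Top2a, Cdk1, Cdc20 and other list members outside that rule were picked with their values in view. The members, lists and rule were chosen with earlier results of these data known. Replicate arrays were labelled as biological, but no source ties them to animals. The p-values and SEs of differences thus measure the spread between nerves within the 4 groups, contralateral and injured pooled. Some members of the gene lists are not reported here. The alternatives were a minimum of 2-fold, the 8 contralateral arrays alone, a replicate block, no dim genes, the mean of probe sets, median centring, cyclic loess, a trended and robust variance, array weights and arrays left out.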

Additional observations from a re-analysis of the deposited data

Results flagged for a closer look

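Among 244 groups of 4 contralateral arrays, the 122 genes named with values on each of the 2 days, 11 held an array set apart from its 3 fellows. Chance alone marks about 1 group in 20, so this count is about what chance would give, and the arrays are listed as a description. The gap can be small where the other 3 arrays lie close together, as for Scd2. At 7 DPI, array 1 was highest for Scd2 at 13.35 (the others lay at 13.30 to 13.31), lowest for Ect2 at 6.05 (6.54 to 6.63) and lowest for Tsc22d3 at 7.89 (8.22 to 8.24). Array 3 of that day was lowest for Emcn at 9.84 (10.14 to 10.20) and highest for Mdk at 8.72 (8.59 to 8.61). Array 4 was highest for Slc2a1 at 10.96 (10.72 to 10.73) and lowest for the fat genes Adipoq at 7.99 (9.93 to 10.04) and Car3 at 9.84 (11.63 to 11.72). At 3 DPI, array 1 was highest for Mark1 at 6.89 (6.74 to 6.76), array 3 lowest for Fbxo5 at 5.61 (5.78 to 5.81) and array 4 highest for Jun at 9.16 (8.79 to 8.82).

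For 21 named genes, the day difference of contralateral nerves differed from that of injured nerves in limma. In myelin and Schwann cell genes the first minus the second was 2.86 for Pmp2 (adjusted p = 2.87e-06), 2.22 for Drp2 (5.65e-07), 1.37 for Scn7a (0.00165) and 1.28 for Mal (0.0013), and it was 0.48 for the cholesterol gene Msmo1 (0.0176). It was 1.61 for the smooth muscle gene Tagln (0.000506). In ligand and receptor genes it was 1.34 for Spp1 (2.72e-05), -0.81 for Ptn (0.0115), -1.06 for Dhh (0.0367), -0.72 for the angiopoietin gene Angpt1 (0.0298) and -0.87 for Gfra1 (0.00174).

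In cell cycle genes the same quantity was 1.30 for Depdc1, 1.28 for Mki67, 1.13 for Ccna2, 1.10 for Top2a, 1.08 for Prc1, 0.97 for Cdk1, 0.95 for Ect2, 0.72 for Mcm6, 0.65 for Fbxo5 and 0.59 for Brip1, with adjusted p from 0.00452 (Mki67) to 0.0352 (Cdk1).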

How the results depend on the processing

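The 13 genes that passed between contralateral 7 DPI and 3 DPI (10 higher, 3 lower) became 2 (2 and 0) with a 2-fold minimum, 0 (0 and 0) on the 8 contralateral arrays alone, 63 (48 and 15) without the dimmest 30% of genes, 42 (33 and 9) with a trended and robust variance, 125 (97 and 28) with array weights, and 6 (5 and 1) without arrays 1 and 2 of 7 DPI. Leaving out 1 array gave 1 to 191 genes, with 0 to 123 higher and 1 to 68 lower, and the highest counts came without array 1 of 3 DPI. Without arrays 1 and 2 of 3 DPI, an alternative chosen after seeing their clock genes, 31 passed (17 and 14). The mean of probe sets, median centring and cyclic loess gave 13, 12 and 14. The cause of these shifts was not tested. The labels do not say whether equal numbers share an animal, and the data did not settle it: same-numbered deviations correlated at -0.14 to 0.13 between contralateral days and at -0.08 to 0.22 between sides. With the replicate block, 5 genes passed (4 and 1), 4 of them among the 13. The 312 genes whose day difference differed from that of injured nerves became 70 with a 2-fold minimum and 216 to 465 with 1 array left out. Of the 100 highest resting genes, 97 to 100 remained with 1 array left out. Over the 122 named genes, no alternative turned the direction of a gene that had passed. Of 2192 values, 2061 stayed on their side of the threshold, 103 lost it and 28 gained it. Only the 13 passed genes could lose it, so all 103 losses are theirs, while most of the 2061 belong to genes that had not passed. Of the 13, Mboat1 passed in 17 of 18 alternatives and the other 12 in 8 to 11 of those that tested them. With newer symbols for olfactory genes, 11437 genes (63.0%) lay above their 95th percentile of 6.32.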

Other observations

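The levels of further gene groups in the resting nerve are given here. The 8 measured complement and acute phase genes had a median of 10.32, with Serping1, C1r and C1s the brightest, none passed between the days, and their median day difference was 0.06. The 7 MHC class II genes were led by Cd74, which was among the 100 highest genes, and had a median of 8.03. The 10 basal lamina genes had a median of 10.59, led by Nid1, which was likewise among the 100 highest. The 14 interferon response genes had a median of 6.92, close to the 6.94 of all genes, and 13 of them had a positive day difference (median 0.24, and 0.37 without array 2 or 0.15 without array 3 of 7 DPI), though none had an unadjusted p under 0.05 in limma, against 4 when only the 8 contralateral arrays were fitted.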
